A study of Homo sapiens with 9 samples.

Results

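The extracellular matrix genes examined here were 8 of the 19257 genes in the deposited tables: VCAN, TNC, THBS1, HSPG2, FN1, TGM2, SPARC and AGRN. They were chosen by name, with their fold changes in both knockouts against control already known, as genes thought to respond in opposite directions to the 2 knockouts. Their values below are therefore a description, with no test of their own. Only VCAN, TNC and HSPG2 were called in opposite directions, and for HSPG2 the TR11B_KO libraries overlapped control and the call was lost in 11 of 21 alternative analyses. THBS1 and TGM2 were called lower in TR11B_KO alone, FN1 and AGRN were called in neither knockout against control, and SPARC had no read in any library.

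RNA was sequenced in 9 libraries of A549, a cell line from a human lung adenocarcinoma. OGT_KO is 3 libraries of cells that received a Lenti-CRISPR-V2 plasmid against OGT, TR11B_KO is 3 libraries of cells that received one against TR11B, and NC is 3 libraries of cells that received the empty plasmid, so all groups carry the vector and NC is labelled WT. TR11B, the protein entry name of osteoprotegerin, was taken to be the gene TNFRSF11B. The sample titles call the 3 libraries of each group biological replicates. Each knockout has 1 column name with a number added, and no label says whether it is 1 clone or 1 guide. Guide, clone and off-target effects therefore cannot be told apart from the knockout. The labels do not say what was repeated for a biological replicate, or whether these were separate cultures, so the spread between samples may be technical.

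The matrix around an epithelial tumour cell is built from secreted glycoproteins and proteoglycans. Versican (VCAN) carries chondroitin sulfate chains and binds hyaluronan, while perlecan (HSPG2) and agrin (AGRN) carry heparan sulfate and sit in basement membranes. Fibronectin (FN1) forms fibrils that integrins bind, tissue transglutaminase (TGM2) cross-links fibronectin and other proteins, and tenascin C (TNC), thrombospondin 1 (THBS1) and SPARC are matricellular proteins, which alter how cells attach rather than build fibres. In lung and other carcinomas, versican, tenascin C and fibronectin are known as components of the reactive tumour matrix, and OGT, the enzyme that attaches O-linked GlcNAc to nuclear and cytosolic proteins, acts on transcription factors and chromatin proteins.

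Library totals lay between 38327508 and 42245970 counts. OGT itself had 927, 1255 and 960 counts in OGT_KO, 716, 356 and 484 in TR11B_KO, and 1239, 1143 and 967 in NC, so its mRNA did not set OGT_KO apart from NC. TNFRSF11B had 1, 0 and 0 counts in OGT_KO, 3, 1 and 0 in TR11B_KO, and 13, 15 and 3 in NC. OGT was lower in TR11B_KO than in NC (log2 −0.99 ± 0.21, SE). Directions below therefore rest on the labels of the libraries. TR11B_KO replicate 2 stood apart, with a scaling factor (TMM) of 0.784 where the other libraries had 0.951 to 1.16. Of 12 markers listed for the A549 epithelium, 9 were in the table. KRT8 and KRT18 were abundant, at means of 5778 and 3241 CPM (counts scaled to the same library total) in OGT_KO, 9924 and 6756 in TR11B_KO, and 11462 and 6162 in NC, and VIM had 725, 731 and 641 CPM. CDH2, N-cadherin, averaged 22.5 CPM in OGT_KO, 6.45 in TR11B_KO and 6.76 in NC, so that it was highest in OGT_KO, where KRT8 and KRT18 were lowest, and the part of this in the results below was not tested. EPCAM, KRT19, AKR1B10 and ALDH1A1, which A549 cells are known to express, had only 3, 74, 4 and 12 counts over all 9 libraries and CDH1 had 0, so the identity of the line rests on the labels. The 6 measured fibroblast markers summed to 1.94 to 3.12 CPM in OGT_KO, 1.26 to 2.05 in TR11B_KO and 1.27 to 1.53 in NC. The 4 measured endothelial markers summed to at most 0.0952, 0 and 0.485 CPM in OGT_KO, TR11B_KO and NC, and the 3 measured leukocyte markers to 3.62 to 4.21, 2.87 to 4.51 and 3.63 to 6.50 CPM.

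The promoters of VCAN, TNC and HSPG2 are shown for comparison, as the members called in opposite directions, HSPG2 less firmly in TR11B_KO. Each sequence runs from 250 bases before to 50 bases after the gene's start, 5′ to 3′ on the gene's own strand, from RefSeq GRCh38.p14, which held an entry for 6 of the 8 genes. Motifs were searched on both strands: the TATA box TATAAA, the GC box GGGCGG, the AP-1 site TGANTCA, the cAMP response element TGACGTCA, the TEAD site GGAATG and the E-box CACGTG. Capitals mark every match to these exact letters, and variant forms of a motif, including those of the TATA box, are not marked.
VCAN, chr5:83471494-83471793, plus strand: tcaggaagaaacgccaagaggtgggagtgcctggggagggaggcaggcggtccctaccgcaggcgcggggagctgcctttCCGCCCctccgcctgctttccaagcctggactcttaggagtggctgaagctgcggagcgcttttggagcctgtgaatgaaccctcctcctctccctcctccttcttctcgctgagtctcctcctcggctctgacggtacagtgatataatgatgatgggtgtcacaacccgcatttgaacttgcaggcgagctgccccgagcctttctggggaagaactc
TNC, chr9:115118108-115118407, minus strand: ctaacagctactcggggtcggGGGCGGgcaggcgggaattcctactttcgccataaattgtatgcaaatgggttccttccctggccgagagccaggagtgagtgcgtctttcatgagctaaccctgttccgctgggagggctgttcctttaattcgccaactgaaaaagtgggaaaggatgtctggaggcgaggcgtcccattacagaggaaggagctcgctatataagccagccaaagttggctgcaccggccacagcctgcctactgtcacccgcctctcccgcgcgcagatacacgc
HSPG2, chr1:21937261-21937560, minus strand: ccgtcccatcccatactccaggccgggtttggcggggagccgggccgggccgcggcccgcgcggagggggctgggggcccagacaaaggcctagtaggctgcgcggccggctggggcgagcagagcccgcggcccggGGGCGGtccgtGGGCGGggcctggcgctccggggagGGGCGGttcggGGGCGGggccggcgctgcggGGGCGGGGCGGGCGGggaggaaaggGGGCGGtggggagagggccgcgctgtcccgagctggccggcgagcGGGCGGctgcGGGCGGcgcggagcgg

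The GC box was the motif found in these 3 promoters, with 1 match in VCAN, 1 in TNC and 10, some overlapping, in HSPG2. It occurs in 45.0% of the 35116 promoters in that table. The HSPG2 promoter had 44 CpG dinucleotides, more than 95.8% of all promoters, against 15 in VCAN and 18 in TNC, where the median promoter has 14. None of the 3 held TATAAA (11.5% of all promoters), TGANTCA (7.71%), TGACGTCA (1.85%), GGAATG (4928 of the 35116) or CACGTG (7.26%). Among the other promoters, FN1 held TGACGTCA once and 6 GC boxes, THBS1 held 4 GC boxes and GGAATG once, and SPARC held GGAATG once and no GC box. These matches describe the letters in the window and say nothing of binding.

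Compared per length, in the authors' FPKM (reads scaled to gene length and library depth), the 8 genes spanned a wide range of levels. In OGT_KO the order was TGM2 (340 ± 8.22, SD, n = 3), AGRN (102 ± 7.64), VCAN (11.9 ± 2.74), THBS1 (7.29 ± 0.718), TNC (2.32 ± 0.305), FN1 (0.282 ± 0.0707) and HSPG2 (0.244 ± 0.0559). In TR11B_KO it was AGRN (68.0, from 58.2 to 85.3), TGM2 (53.5 ± 5.69), HSPG2 (3.78 ± 1.71), THBS1 (1.97 ± 0.414), VCAN (0.357 ± 0.170), TNC (0.0757 ± 0.0272) and FN1 (0.0357 ± 0.0263). In NC it was TGM2 (371 ± 17.1), AGRN (103 ± 1.46), THBS1 (7.72 ± 0.0952), VCAN (2.14 ± 0.386), HSPG2 (2.06 ± 0.125), TNC (0.452 ± 0.131) and FN1 (0.120 ± 0.0586). The libraries of FN1 and HSPG2 overlapped in OGT_KO, those of HSPG2 and THBS1 and of TNC and FN1 in TR11B_KO, and those of VCAN and HSPG2 in NC, while all other neighbours in these orders were apart. VCAN was above THBS1 in OGT_KO and below it in TR11B_KO and NC, and AGRN was above TGM2 in TR11B_KO alone. SPARC, a collagen-binding protein, was listed at 0 in all 9 libraries, which allows up to 3 counts a library, or at most 0.0967 CPM in the library with the smallest scaled total (a limit for counting error only).

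**Figure D1:**
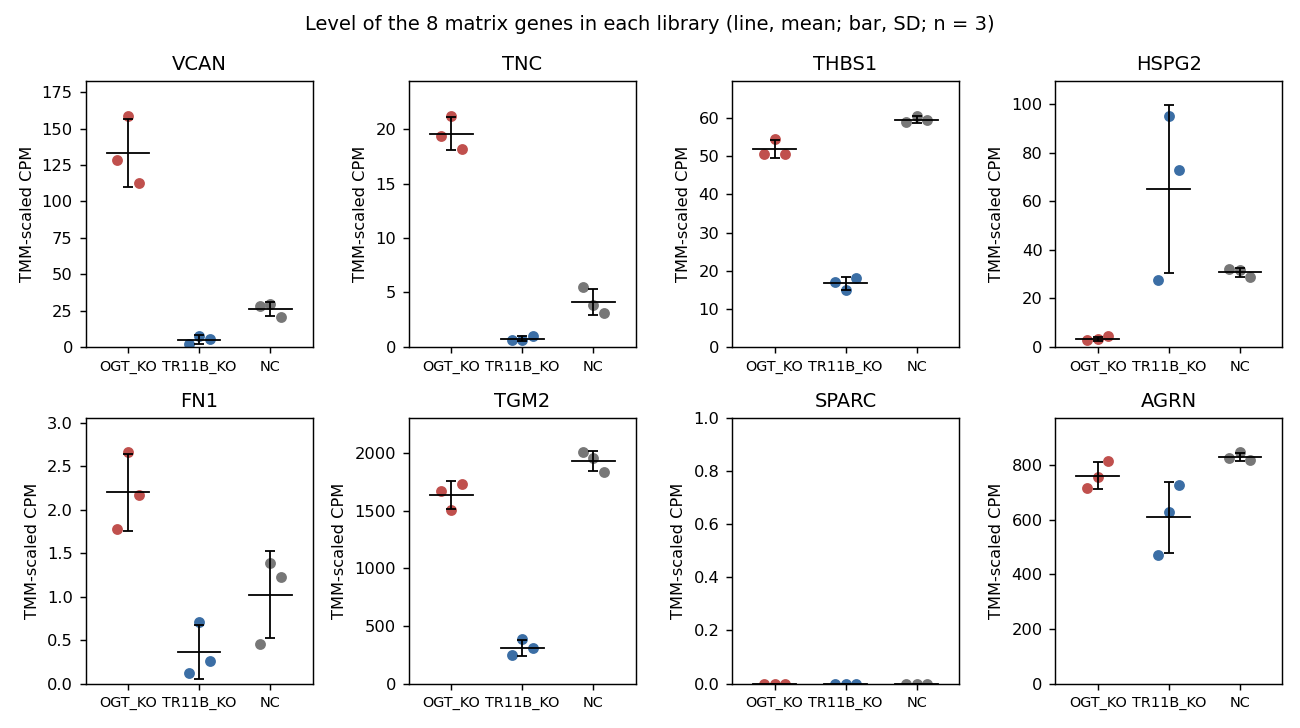
TMM-scaled CPM of each gene (vertical axis, from 0, its own scale per panel) in the 3 libraries of OGT_KO, TR11B_KO and NC (horizontal axis), with the mean as a line and the SD as a bar. VCAN and TNC are highest in OGT_KO and lowest in TR11B_KO, HSPG2 is lowest in OGT_KO, THBS1 and TGM2 are low in TR11B_KO, and SPARC is at 0.

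Fold changes come from 1 edgeR quasi-likelihood fit to all 9 libraries, on CPM scaled by TMM, and a gene is called at a Benjamini-Hochberg adjusted p under 0.05 over the 12574 tested genes. Of the 8 members, 7 passed the filter on low counts and were tested, all but SPARC. In OGT_KO against NC, 2 were called higher (8.26% of all tested genes were) and 1 lower (10.1%), and the libraries of the groups did not overlap for 7 (49.8%). In TR11B_KO against NC, 1 was called higher (13.2%) and 4 lower (14.3%), with no overlap for 5 (40.9%). In OGT_KO against TR11B_KO, 5 were called higher (16.7%) and 1 lower (16.5%), with no overlap for 6 (44.9%). VCAN, TNC and HSPG2, 3 members, were called in opposite directions in the 2 knockouts, as were 1.70% of all tested genes. Since these contrasts chose the members, nothing is read from the counts. Both knockouts are set against the same NC libraries.

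Versican, the large hyaluronan-binding chondroitin sulfate proteoglycan, had 129, 159 and 113 CPM in OGT_KO, 2.05, 7.71 and 5.40 CPM in TR11B_KO, and 28.3, 29.4 and 20.7 CPM in NC. The 3 groups were fully apart, OGT_KO above NC and TR11B_KO below it. VCAN was 5.10-fold higher in OGT_KO than in NC (log2 fold change 2.35 ± 0.34, SE) and 5.21-fold lower in TR11B_KO than in NC (log2 fold change −2.38 ± 0.35). OGT_KO exceeded TR11B_KO 26.6-fold. The gene lies on chromosome 5 from 83471744 to 83582302 (GRCh38.p14), and its coding transcript of 15 exons is the longest of 7 in GENCODE 29. Splice forms of versican differ in their chondroitin sulfate regions, and gene-level counts do not separate them. The summed fibroblast markers were also higher in every OGT_KO library than in NC, a sum carried by ACTA2 (2.01 CPM in OGT_KO and 0.886 in NC), while COL1A1 was lower in OGT_KO (0.300 CPM, against 0.487 in NC). COL3A1, LUM, PDGFRB and THY1 had at most 4 counts over all 9 libraries. The part of these markers in the VCAN values was not tested. In bulk RNA, fewer cells with a transcript and less of it per cell cannot be told apart.

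Tenascin C, a many-armed matricellular glycoprotein (chromosome 9, 115019575 to 115118157), followed the same pattern. It had 852, 943 and 763 counts in OGT_KO, 27, 19 and 40 in TR11B_KO, and 229, 162 and 123 in NC. As scaled levels these were 19.4, 21.2 and 18.2 CPM in OGT_KO, 0.643, 0.613 and 1.02 CPM in TR11B_KO, and 5.47, 3.81 and 3.14 CPM in NC. Again no group overlapped another, and the TR11B_KO libraries rested on few reads. TNC was 4.72-fold higher in OGT_KO (log2 2.24 ± 0.26, SE) and 5.41-fold lower in TR11B_KO (log2 −2.44 ± 0.29), each against NC. Across the 9 libraries, log2 CPM of TNC and VCAN had a Pearson correlation of 0.971, given as a description of 9 points that form 3 groups.

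Perlecan, the heparan sulfate proteoglycan of basement membranes (HSPG2, chromosome 1, 21822244 to 21937310, 97 exons in its longest coding transcript), went the other way. It had 118, 140 and 181 counts in OGT_KO, 1154, 2957 and 2841 in TR11B_KO, and 1349, 1340 and 1122 in NC. The scaled levels were 2.68, 3.15 and 4.31 CPM in OGT_KO, 27.5, 95.3 and 72.8 CPM in TR11B_KO, and 32.2, 31.5 and 28.7 CPM in NC. All OGT_KO libraries lay far below NC, at a level 9.11-fold lower (log2 −3.19 ± 0.37, SE). In TR11B_KO the group mean was higher than NC (log2 1.08 ± 0.33, a 2.11-fold difference), but the groups overlapped. TR11B_KO replicate 1 lay below all 3 NC libraries, whereas replicates 2 and 3 lay well above them. Without TR11B_KO replicate 2 the log2 difference was 0.74 ± 0.34, and HSPG2 was called higher in 10 of the 21 alternative analyses, so the direction of HSPG2 in TR11B_KO is less firmly measured than its fall in OGT_KO, which was called in all 21. Across the libraries HSPG2 had a correlation of −0.900 with TNC and −0.832 with VCAN, again a description of 9 points that form 3 groups. Within TR11B_KO, HSPG2 and VCAN were both lowest in replicate 1 and highest in replicate 2.

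**Figure D2:**
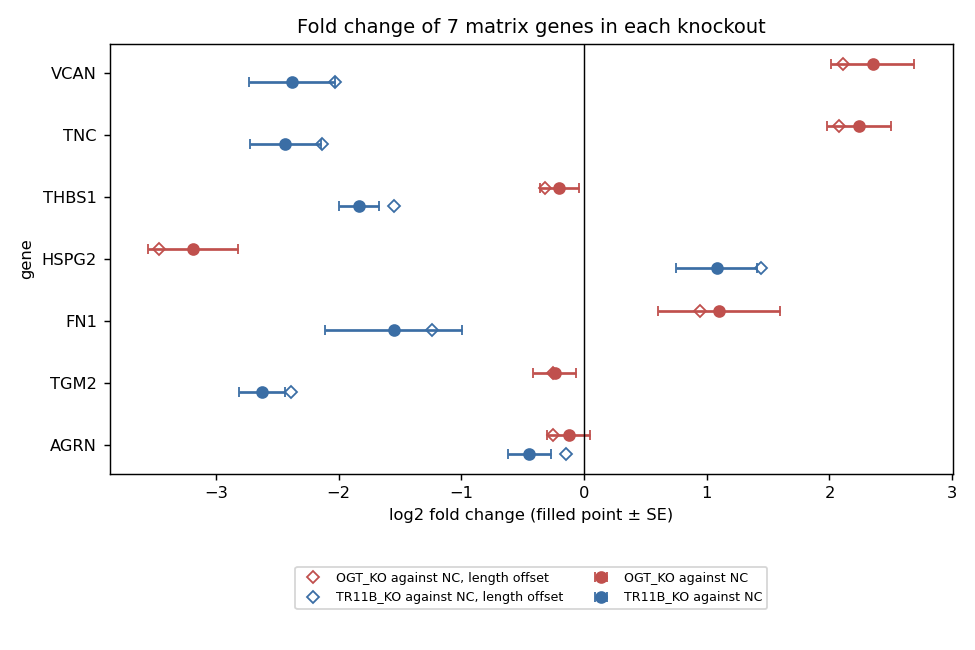
Log2 fold change (horizontal axis) of the 7 tested genes (vertical axis) in OGT_KO and in TR11B_KO against NC, filled points with SE bars, beside the value after a gene-length offset, open diamonds. VCAN lies at 2.35 and −2.38, TNC at 2.24 and −2.44, HSPG2 at −3.19 and 1.08, and the TGM2 and THBS1 points of OGT_KO lie close to 0.

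Fibronectin, the fibril-forming ligand of integrins (FN1, chromosome 2, 215360865 to 215436068), was barely expressed. It had 78, 118 and 91 counts in OGT_KO, 5, 22 and 10 in TR11B_KO, and 19, 59 and 48 in NC. All OGT_KO libraries were above all NC libraries, and TR11B_KO replicate 2 overlapped NC replicate 1. The log2 fold change was 1.10 ± 0.50 (SE) in OGT_KO and −1.55 ± 0.56 in TR11B_KO against NC, and neither was called. Without TR11B_KO replicate 2, the TR11B_KO value was −2.41 ± 0.54 and was called. OGT_KO and TR11B_KO did not overlap each other, with a log2 fold change of 2.65 ± 0.55, which was 3.51 without TR11B_KO replicate 2. At 0.0139 to 0.359 FPKM, fibronectin was the lowest of the members with reads in TR11B_KO and NC.

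Thrombospondin 1, which activates latent TGF-beta and binds CD47 (THBS1, chromosome 15, 39581079 to 39599466), was low in a single knockout. Its level was 50.6, 54.6 and 50.5 CPM in OGT_KO, 17.1, 14.9 and 18.2 CPM in TR11B_KO, and 58.9, 60.6 and 59.4 CPM in NC. TR11B_KO was 3.56-fold below NC (log2 −1.83 ± 0.17, SE). The OGT_KO libraries also lay below every NC library, but by a small step (log2 −0.20 ± 0.16) that was not called in any of the 21 alternatives. The spread among NC libraries was small, a coefficient of variation of 1.52% against a median of 8.34% for the 500 genes nearest in level.

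TGM2, the calcium-dependent enzyme that cross-links matrix proteins (chromosome 20, 38127385 to 38168475), was the most abundant member in OGT_KO and NC. It had 73380, 66786 and 72818 counts in OGT_KO, 10321, 11895 and 12097 in TR11B_KO, and 83948, 83106 and 71694 in NC. It took 0.178, 0.174 and 0.183% of all counts in OGT_KO, 0.0246, 0.0301 and 0.0295% in TR11B_KO, and 0.203, 0.197 and 0.185% in NC. Ranked by counts it was gene 76 to 81 in OGT_KO, 682 to 785 in TR11B_KO and 56 to 70 in NC. The fall in TR11B_KO against NC was 6.17-fold (log2 −2.63 ± 0.19, SE), and TGM2 had rank 55 from the lowest value among the tested genes. OGT_KO was 1.18-fold below NC with no overlap of libraries (log2 −0.24 ± 0.18), a difference that was not called. TGM2 and THBS1 had a correlation of 0.978 across the 9 libraries, which form 3 groups.

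Agrin, the heparan sulfate proteoglycan that binds dystroglycan and LRP4 (AGRN, chromosome 1, 1020120 to 1056116), moved least. It had 716, 757 and 815 CPM in OGT_KO, 472, 628 and 729 CPM in TR11B_KO, and 826, 847 and 820 CPM in NC. Both knockouts lay below all NC libraries and overlapped each other. The log2 fold change was −0.12 ± 0.18 (SE) in OGT_KO and −0.45 ± 0.18 in TR11B_KO against NC, neither of them called, although AGRN was called lower in TR11B_KO in 6 of the 21 alternatives. AGRN in TR11B_KO had −0.15 ± 0.19 after an offset for gene length. In OGT_KO against TR11B_KO its value of 0.32 turned to −0.10 with that offset, so no direction between the knockouts is given for it.

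The 3 proteoglycan core proteins can be set side by side within each library, because their ratio does not depend on library scaling. VCAN made up 10.6, 12.1 and 8.32% of the summed FPKM of VCAN, HSPG2 and AGRN in OGT_KO, 0.276, 0.741 and 0.461% in TR11B_KO, and 2.16, 2.19 and 1.60% in NC. HSPG2 made up 0.180, 0.196 and 0.260% in OGT_KO, 3.03, 7.49 and 5.07% in TR11B_KO, and 2.01, 1.92 and 1.82% in NC. AGRN held the rest, from 87.7 to 96.7%. The FPKM ratio of VCAN to HSPG2 was 58.6, 61.7 and 32.0 in OGT_KO, 0.0912, 0.0989 and 0.0909 in TR11B_KO, and 1.08, 1.14 and 0.882 in NC. The ratio varied little among the TR11B_KO libraries, although replicate 1 had the lowest level of both genes.

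**Figure D3:**
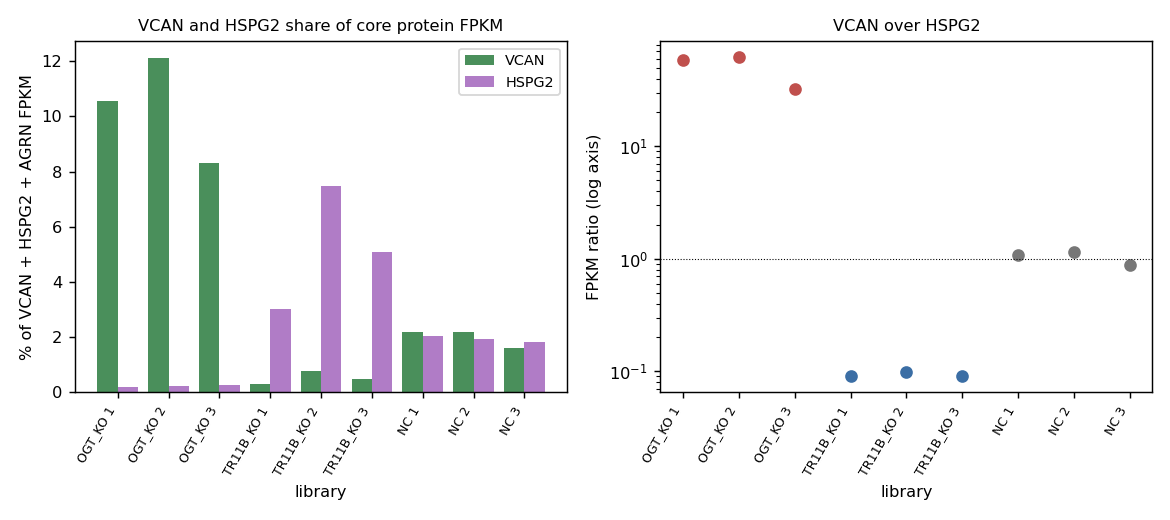
Left, percent of the summed FPKM of VCAN, HSPG2 and AGRN (vertical axis) held by VCAN and HSPG2 in each library (horizontal axis). Right, FPKM ratio of VCAN to HSPG2 per library on a log axis, between 32.0 and 61.7 in OGT_KO, between 0.0909 and 0.0989 in TR11B_KO and between 0.882 and 1.14 in NC.

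Gene length moved with the fold changes in TR11B_KO, and the members are long. Over the 12574 genes, which are not independent, Spearman's rho between length and log2 fold change against NC was 0.066 for OGT_KO and −0.313 for TR11B_KO. In the longest quintile (7154 to 47609 bases) the median log2 fold change was 0.21 for OGT_KO and −0.31 for TR11B_KO. VCAN (12345 bases), TNC (9240), THBS1 (7789), HSPG2 (15109), FN1 (8571) and AGRN (8127) belong to that quintile, and TGM2 (5246) to the next, whose medians were 0.02 and −0.22. With each library's smooth trend on length taken as an offset, TR11B_KO against NC gave −2.03 ± 0.35 (SE) for VCAN, −2.13 ± 0.27 for TNC, −1.55 ± 0.16 for THBS1, −2.39 ± 0.21 for TGM2 and 1.44 ± 0.35 for HSPG2. The same offset in OGT_KO gave 2.11 ± 0.34 for VCAN, 2.08 ± 0.25 for TNC and −3.46 ± 0.39 for HSPG2. AGRN in TR11B_KO was the member closest to the median of its quintile. What else the length trend carries with it was not tested.

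**Figure D4:**
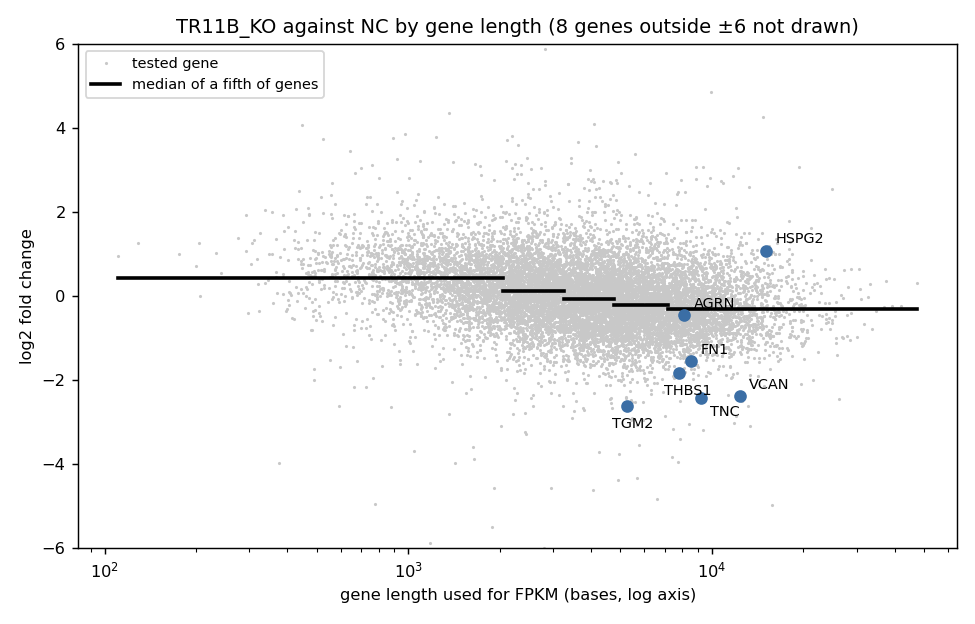
Log2 fold change in TR11B_KO against NC (vertical axis) by the gene length used for FPKM (horizontal axis, log scale) for all tested genes, with the median of each length quintile as a line and the 7 tested members as labelled points. VCAN, TNC, THBS1 and TGM2 lie below the line of their quintile, AGRN near it and HSPG2 above it, and 8 genes beyond ±6 are not drawn.

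The genes whose log2 CPM followed each member most closely over the 9 libraries were sought among 7020 other genes (7021 for FN1) whose average log2 CPM reached 2, by Pearson correlation, as a description of points that fall into 3 groups. VCAN was followed by TPCN1, an endolysosomal cation channel (0.992), FGF11 (0.989) and the transcription factor MEF2D (0.988). TNC was followed by the haem transporter SLC48A1 (0.990) and the interferon-induced IFITM3 (0.988). THBS1 was closest to PDGFB, a platelet-derived growth factor chain (0.995), SLC16A5 (0.990) and AFAP1L2 (0.989), and TGM2 to the keratin KRT80 (0.990), ABHD12 (0.990) and TBC1D2 (0.985). HSPG2 was closest to envoplakin, EVPL (0.991), fructosamine 3-kinase, FN3K (0.990), and ASAP3 (0.989). FN1, at low counts, had ZNF217 (0.966), CACNG7 (0.962) and PNN (0.959), and AGRN had NOTCH1 (0.968), GATD1 (0.959) and ITPR3 (0.937). EVPL, for example, averaged 17.0 CPM in OGT_KO, 90.6 in TR11B_KO and 65.1 in NC.

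The surroundings of these 8 genes in the matrix were examined with 8 lists of other genes, 283 in all, of which 147 were tested. In OGT_KO against NC, 13 of the 147 rose and 33 fell (8.26% and 10.1% of all tested genes did), so that 31.3% were called, against 18.3% of all tested genes. The balance of rises and falls depends on the scaling. With library totals alone, 1369 of all tested genes rose and 890 fell in OGT_KO, where 1039 and 1264 are reported, so no direction of the listed genes is read from it. In TR11B_KO against NC, 25 rose and 35 fell, 40.8% against 27.6% of all. In OGT_KO against TR11B_KO, 29 were higher and 41 lower, 47.6% against 33.2%. The number called in OGT_KO ranged from 25 to 79 when a library was left out, highest without TR11B_KO replicate 2 (79) and lowest without NC replicate 2 (25), and was 26 to 28 without any single OGT_KO library and 26 without NC replicate 1. In TR11B_KO it was 26 and 25 without NC replicate 1 and 2, and in OGT_KO against TR11B_KO it was 44 without OGT_KO replicate 2.

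Of 16 tested receptors that bind the members, 3 rose and 3 fell in OGT_KO, and 0 rose and 8 fell in TR11B_KO. Calls covered 37.5% and 50% of the list, against 18.3% and 27.6% of all tested genes. In TR11B_KO the median log2 fold change was −0.58, and −0.47 with the length offset, against −0.01 for all tested genes. The lower calls in OGT_KO were 1 with library totals alone or a replicate block, and 5 in a fit of only the 2 groups compared. EGFR, which the G3 domain of versican is reported to activate, had 82.6 ± 13.1 CPM in OGT_KO, 19.3 ± 2.99 in TR11B_KO and 39.6 ± 3.79 in NC (SD, n = 3). It rose in OGT_KO (log2 1.06 ± 0.19, SE, edgeR adjusted p = 0.00172) and fell in TR11B_KO (log2 −1.04 ± 0.19, adjusted p = 0.00152). ADGRG1, an adhesion receptor known to bind TGM2, rose in OGT_KO (1.19 ± 0.29, edgeR adjusted p = 0.0121) and fell in TR11B_KO (−1.10 ± 0.30, adjusted p = 0.0146), and so did the integrin chain ITGB3, which pairs with ITGAV to bind fibronectin (1.23 ± 0.31, adjusted p = 0.0140, and −1.19 ± 0.32, adjusted p = 0.0137). Each of these 4 calls was lost in 3 or 4 of the 21 alternatives. DAG1, dystroglycan, the receptor of agrin and perlecan, fell in TR11B_KO (log2 −1.32 ± 0.26, edgeR adjusted p = 0.00231). The fibronectin receptor chain ITGA5 fell in both knockouts, with −1.38 ± 0.23 in OGT_KO (edgeR adjusted p = 0.00104) and −0.71 ± 0.22 in TR11B_KO (adjusted p = 0.0295, lost in 10 of 21 alternatives).

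Of 14 other proteoglycans and related proteins tested, 0 rose and 4 fell in OGT_KO, and 4 rose and 1 fell in TR11B_KO, calls for 28.6% and 35.7% of the list against 18.3% and 27.6% of all tested genes. Among the 4 was the link protein HAPLN3, not itself a proteoglycan and named after its values were seen. HAPLN3 had 2, 5 and 0 counts in OGT_KO and 25, 27 and 25 in NC. The median log2 fold change of the list was −0.30 in OGT_KO (−0.29 with the length offset, 0.03 over all tested genes). In TR11B_KO it was −0.17, but 0.01 with the length offset (−0.01 over all tested genes), so the median has no direction there. The transmembrane syndecan SDC3 had 5.67 ± 0.471 CPM in OGT_KO, 34.0 ± 8.50 in TR11B_KO and 20.1 ± 5.13 in NC (SD, n = 3), a fall in OGT_KO (log2 −1.83 ± 0.25, SE, edgeR adjusted p = 0.00028) and a rise in TR11B_KO (0.76 ± 0.24, adjusted p = 0.0293, lost in 9 of 21 alternatives). Biglycan, BGN, a small leucine-rich proteoglycan, had 0.101 ± 0.0885 CPM in OGT_KO, 6.72 ± 3.8 in TR11B_KO and 0.766 ± 0.249 in NC. It rose in TR11B_KO (3.12 ± 0.49, edgeR adjusted p = 0.000685) but fell in OGT_KO (−2.90 ± 0.65, adjusted p = 0.00800, lost in 2 alternatives). Its OGT_KO level is near the floor, as 3 counts are 0.0675 to 0.0714 CPM in those libraries. Syndecan 1, SDC1, fell in both knockouts (−0.55 ± 0.17 in OGT_KO and −0.59 ± 0.17 in TR11B_KO, edgeR adjusted p = 0.0332 and 0.0176, lost in 11 and 5 alternatives). SPOCK1, a testican with a domain related to SPARC, was named after its values were seen. It had 0, 0 and 0 counts in OGT_KO, 104, 66 and 95 in TR11B_KO, and 1, 1 and 1 in NC (edgeR adjusted p = 3.92e-05 in TR11B_KO against NC).

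Of 37 tested enzymes that build or modify glycosaminoglycan chains, 1 rose and 8 fell in OGT_KO, and 4 rose and 7 fell in TR11B_KO. These are 24.3% and 29.7% of the list, against 18.3% and 27.6% of all tested genes, and the share in TR11B_KO is close to that background. In OGT_KO, 5 rose and 5 fell with library totals alone, and also with limma on log2(FPKM + 1). A fit of only the 2 groups compared gave 8 and 12, and leaving out NC replicate 1 or 2 gave 0 and 4. The direction of the list in OGT_KO is therefore not firm. NDST1 and EXT1, a sulfotransferase and a polymerase of heparan sulfate, fell in both knockouts. NDST1 had 188 ± 14.8 CPM in OGT_KO, 138 ± 41.5 in TR11B_KO and 377 ± 63.9 in NC (SD, n = 3), with edgeR adjusted p = 0.00707 in OGT_KO and 0.000651 in TR11B_KO. For EXT1 the log2 values were −0.90 ± 0.29 (SE) in OGT_KO (edgeR adjusted p = 0.0427, lost in 11 of 21 alternatives) and −1.49 ± 0.29 in TR11B_KO (adjusted p = 0.00251). XYLT2, which starts the linkage of chains to core proteins, fell in OGT_KO (−0.85 ± 0.16, edgeR adjusted p = 0.00332), and B3GALT6, of the same linkage region, rose in TR11B_KO (0.93 ± 0.17, adjusted p = 0.00187).

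**Figure D5:**
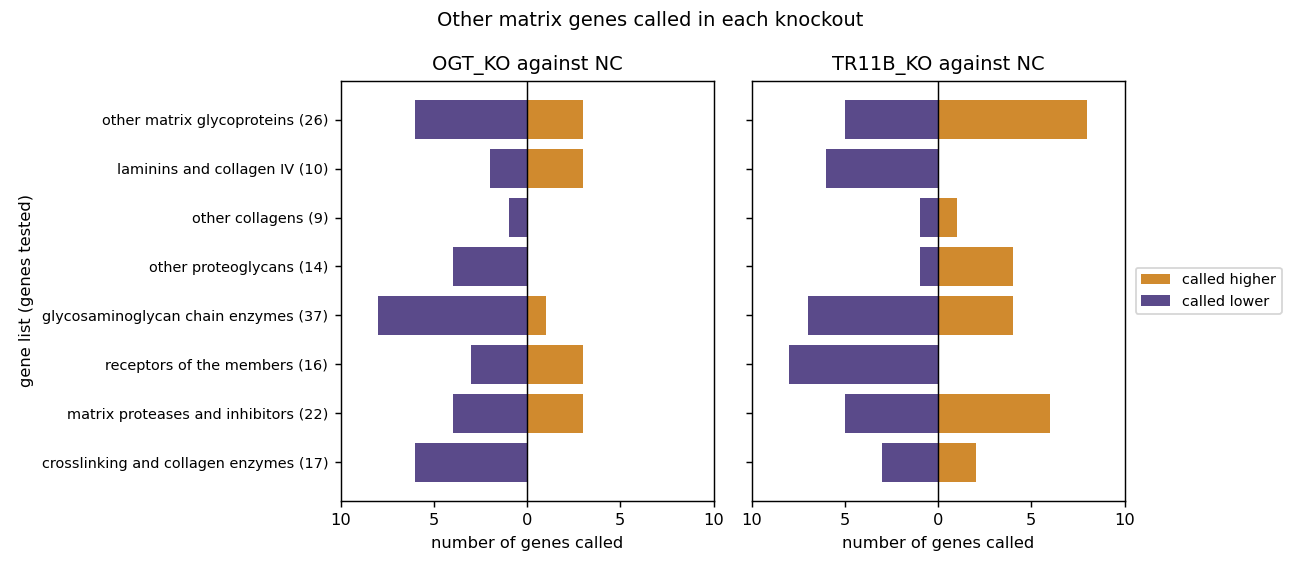
Number of genes called higher (right of 0) and lower (left of 0) in OGT_KO and in TR11B_KO against NC (horizontal axis) for 8 lists of other matrix genes (vertical axis, genes tested in brackets). Receptors of the members had 8 genes lower and 0 higher in TR11B_KO (50% called, against 27.6% of all tested genes). Other proteoglycans, with the link protein HAPLN3 among them, had 4 lower and 0 higher in OGT_KO (28.6%, against 18.3%).

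Basement membrane chains changed in both directions in OGT_KO, where 3 of 10 tested laminin and collagen IV genes rose and 2 fell, but 0 rose and 6 fell in TR11B_KO. That is 50% and 60% of the list, against 18.3% and 27.6% of all tested genes. Their median log2 fold change in TR11B_KO was −0.75, and −0.47 with the length offset. The lower calls in OGT_KO were 1 with a replicate block and 5 in a fit of only the 2 groups compared. LAMB1 and LAMA5, chains of laminins that agrin and perlecan adjoin in basement membranes, rose in OGT_KO and fell in TR11B_KO. The log2 values of LAMB1 were 1.91 ± 0.22 (SE) in OGT_KO and −0.91 ± 0.22 in TR11B_KO (edgeR adjusted p = 8.98e-05 and 0.00847, the second lost in 1 alternative). LAMA5 had 0.92 ± 0.21 in OGT_KO and −1.39 ± 0.21 in TR11B_KO (edgeR adjusted p = 0.00785 and 0.000561, the first lost in 1 alternative). LAMB3, a chain of an epithelial laminin, rose in OGT_KO (2.04 ± 0.19, edgeR adjusted p = 1.24e-05). Of 9 other collagen genes, 11.1% were called in OGT_KO and 22.2% in TR11B_KO, against 18.3% and 27.6% of all tested genes. COL6A2, a collagen VI chain, alone was called in OGT_KO, where it fell (−0.90 ± 0.19, edgeR adjusted p = 0.00448), and it rose in TR11B_KO (1.03 ± 0.19, adjusted p = 0.00154). COL17A1, the hemidesmosome collagen, named after its values were seen, fell in TR11B_KO (−1.57, edgeR adjusted p = 0.0135). Its value in OGT_KO was −1.18, which was not called (edgeR adjusted p = 0.0572). The 2 knockouts were not called apart for COL17A1 (0.39, edgeR adjusted p = 0.515).

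Of 26 tested matrix glycoproteins other than the members, 3 rose and 6 fell in OGT_KO, and 8 rose and 5 fell in TR11B_KO. That is 34.6% and 50% of the list, against 18.3% and 27.6% of all tested genes. With library totals alone, 5 rose and 4 fell in OGT_KO. Nephronectin, NPNT, an integrin ligand, had 18.6 ± 2.48 CPM in OGT_KO, 3.76 ± 0.296 in TR11B_KO and 6.31 ± 0.534 in NC (SD, n = 3), rising in OGT_KO (1.56 ± 0.21, SE, edgeR adjusted p = 0.000255) and falling in TR11B_KO (−0.74 ± 0.21, adjusted p = 0.0176, lost in 6 of 21 alternatives). TGFBI, a TGF-beta-induced adhesion protein, fell in both knockouts (−1.29 ± 0.18 in OGT_KO and −0.58 ± 0.18 in TR11B_KO, edgeR adjusted p = 0.000429 and 0.0285, the second lost in 6 alternatives). IGFBP7 and THBS3, a relative of THBS1, rose in TR11B_KO (0.94 ± 0.18 and 0.98 ± 0.25, edgeR adjusted p = 0.00195 and 0.0114). Fibrillin 1, FBN1, named after its values were seen, had 88, 157 and 113 counts in OGT_KO, 42, 21 and 29 in TR11B_KO, and 16, 17 and 16 in NC, and rose in both (adjusted p = 0.000176 and 0.0471, the second lost in 15 of 21 alternatives).

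Of 22 matrix proteases and inhibitors, 3 rose and 4 fell in OGT_KO, and 6 rose and 5 fell in TR11B_KO. The shares called were 31.8% and 50%, against 18.3% and 27.6% of all tested genes. TIMP2, an inhibitor of metalloproteinases, had 0.424 ± 0.289 CPM in OGT_KO, 14.7 ± 2.78 in TR11B_KO and 3.32 ± 0.831 in NC (SD, n = 3). It fell in OGT_KO (−2.95 ± 0.43, SE, edgeR adjusted p = 0.000469) and rose in TR11B_KO (2.15 ± 0.37, adjusted p = 0.00119). The urokinase gene PLAU rose in OGT_KO (0.99 ± 0.15, edgeR adjusted p = 0.00075). ADAMTS1, ADAMTS9 and ADAMTS15, proteases known to cut versican, were named after their values were seen. ADAMTS5, of the same list, was called in neither knockout against NC (0.28 in OGT_KO and −0.73 in TR11B_KO, edgeR adjusted p = 0.511 and 0.0637). ADAMTS1 and ADAMTS9 fell in TR11B_KO (−0.74 ± 0.19 and −0.87 ± 0.29, edgeR adjusted p = 0.0113 and 0.0392, lost in 3 and 13 of 21 alternatives). ADAMTS15, at 1, 3 and 1 counts in OGT_KO, 51, 26 and 52 in TR11B_KO and 24, 22 and 11 in NC, fell in OGT_KO (adjusted p = 0.00261, lost in 2 alternatives).

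Of 17 other cross-linking and collagen-modifying enzymes, 0 rose and 6 fell in OGT_KO (median log2 fold change −0.55, and 0.03 over all tested genes), and 2 rose and 3 fell in TR11B_KO. Calls made up 35.3% and 29.4% of the list, against 18.3% and 27.6% of all tested genes. The share in TR11B_KO is close to that background. CRTAP, a subunit of the collagen prolyl 3-hydroxylase complex, fell to 32.5 ± 2.91 CPM in OGT_KO, against 65.3 ± 8.94 CPM in NC (SD, n = 3, edgeR adjusted p = 0.00324, lost in 1 alternative). The collagen chaperone SERPINH1 fell in OGT_KO as well (−0.83 ± 0.16, SE, edgeR adjusted p = 0.00358). COLGALT1, a collagen galactosyltransferase, fell in both knockouts (−0.68 ± 0.16 in OGT_KO and −0.80 ± 0.16 in TR11B_KO, edgeR adjusted p = 0.00843 and 0.00251, the first lost in 3 alternatives). The prolyl 3-hydroxylase family members P3H3 and P3H2 changed in opposite directions in TR11B_KO (1.93 ± 0.24 for P3H3 and −1.46 ± 0.30 for P3H2, edgeR adjusted p = 0.000182 and 0.00305).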

How the data were processed

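Total RNA of 9 A549 samples was sequenced, 3 each of OGT_KO, TR11B_KO and NC, grouped and numbered by their titles. The deposited table of raw counts holds whole reads per gene with no normalization, and the deposited FPKM table holds the authors' values, scaled to gene length and library depth, for the same 19257 genes. Per the submitters' processing notes, fastp, HISAT, HTSeq, R 3.2.0 and DESeq2 were used with GRCh38. Their roles, and whether strand was kept, are not stated in the labels or files. Gene length was taken from the ratio of the 2 tables.

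Counts were analysed in R 4.3.3 with edgeR 4.0.16 (filterByExpr, TMM, robust quasi-likelihood F test, 1 mean per group over all 9 libraries), with Benjamini-Hochberg adjustment over 12574 genes. An SE is the absolute log2 fold change over the square root of F. The fit was run on simulated counts that had the same dispersion in every gene and library and no length trend. Those runs therefore say nothing of the uneven spread between libraries or of the length trend in these data. CPM use the TMM-scaled total. Lists of marker genes of other cell types were summed per library. DESeq2 1.42.0, limma 3.58.1 on log2(FPKM + 1) and on log2(FPKM + 0.1), other scalings and filters, a length offset, a replicate block and each library left out served as alternatives. The members, lists and tests were chosen with earlier results of these data known. Listed genes named in the text were taken from those among the 3 smallest adjusted p of a list in a knockout (average log2 CPM of at least 2) or called in opposite directions, unless the text says otherwise. Some genes that this rule or the correlations pick are not reported here.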

Additional observations from a re-analysis of the deposited data

How the results depend on the processing

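The 7 tested members kept the sign of their fold change in all 21 alternatives of each comparison, except AGRN in OGT_KO against TR11B_KO, which kept it in 19. VCAN and TNC were called in all 21 in both knockouts, HSPG2 in all 21 in OGT_KO but in 10 in TR11B_KO, and FN1, not called in the fit reported, in 5 and 6. AGRN, also not called, was called in 0 and 6. A pseudocount of 1 on FPKM shrank the low genes, as in TNC with −0.43 in TR11B_KO.

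Fits of only the 2 groups compared called 5095 genes in OGT_KO and 2251 in TR11B_KO against NC, where 2303 and 3469 are reported, and 81 and 38 of the listed matrix genes, where 46 and 60 are reported. Leaving out a library gave 1072 to 4536 genes in OGT_KO (1072, 1169 and 1447 without NC replicate 1, 2 and 3, 1162, 1170 and 1249 without OGT_KO replicate 1, 2 and 3, 4536 without TR11B_KO replicate 2), 1813 to 4463 in TR11B_KO (1866 and 1813 without NC replicate 1 and 2), and 2401 to 5307 in OGT_KO against TR11B_KO (2401 without OGT_KO replicate 2, where 4174 are reported). For the listed genes the ranges were 25 to 79, 25 to 70 and 44 to 85. With library totals as the sole scaling, median log2 fold changes became 0.15, −0.15 and 0.31, from 0.03, −0.01 and 0.06, and the higher and lower calls were 1369 and 890, 1180 and 2030, and 3084 and 1268, where 1039 and 1264, 1666 and 1803, and 2104 and 2070 are reported.

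To see whether replicate numbers pair the samples, deviations of log2 CPM from the group mean were correlated between libraries of different groups. The correlations were −0.199 to 0.0687 for same-numbered libraries and −0.100 to 0.216 for the others, so no pairing by number was seen. Deviations within a group depend on each other, which limits this check. The replicate block called 1609, 2612 and 3403 genes. With the length offset as well, it called 1980 genes and 31 listed genes in TR11B_KO. Depth limits FN1, SPARC and TNC in TR11B_KO, where a library had at most 40 counts. The cause of these shifts was not tested.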
